A study of Mus musculus with 12 samples.

Results

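The subject is the first day of differentiation of C2C12 cells kept in PFI-3. C2C12 is an immortalized line of mouse myoblasts, and the labels name no clone. PFI-3 is a small molecule that occupies the bromodomains of BRG1, BRM and Polybromo, subunits of SWI/SNF remodelling complexes encoded by Smarca4, Smarca2 and Pbrm1. The 4 libraries of this comparison are 2 of 50 uM PFI-3 in growth medium (GM) and 2 of 50 uM PFI-3 after 24 h in differentiation medium (DM 24h), of 12 libraries in all. The same stages with DMSO, the vehicle, served as the reference, with 2 libraries each, and share no library with the PFI-3 comparison. Growth medium held 10% fetal bovine serum and cells stayed at or below 70% confluency. Differentiation was induced at 90% confluency with 2% horse serum and insulin at 2 ug/ml. PFI-3 or DMSO was given for 12 h before harvest or induction and renewed every 24 h in differentiation medium. The labels call the libraries biological duplicates and do not say what the letters A and B stand for, so the p-values measure the spread between these samples.

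Myoblasts carry the bHLH factor MyoD in an inactive setting while they divide in serum. When mitogens fall and cells touch, they leave the cell cycle and switch on Myogenin (gene Myog), which with MEF2 factors drives genes of fusion, the sarcomere and calcium handling. BRG1 and BRM complexes open chromatin at such genes, and the bromodomain that PFI-3 occupies reads acetylated histones.

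Expected counts totalled 13262584 and 13620138 in the GM libraries with PFI-3 and 12734463 and 12698333 in the DM 24h libraries with PFI-3. All 12 libraries lay between 12576374 and 13658352. A gene absent from a library's table was taken as 0, and 12545 of 16288 listed genes passed the filter on low counts. Levels of a gene are given as CPM, counts scaled to a common normalised library total, in the order of library A and library B. The GM libraries with PFI-3 differed more from each other than the DM 24h libraries did. Over 10656 genes the log2 ratio between the duplicates had an SD of 0.33 in GM and 0.16 at DM 24h. The B to A ratio in GM had a Pearson correlation of 0.30 with the first-day change over 10467 genes, values that share the same GM libraries. GM with DMSO had an SD of 0.37. The test nevertheless used a spread per gene that is shared by all 6 groups, GM and DM alike.

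Myoblast markers fitted the label in all 4 libraries. None of the 10 markers, among them Myod1, Myf5, Des, Cdh15, Pax7, Itga7, Ncam1, Vcam1 and Chrna1, was under 1 FPKM in all of them, and their summed level rose from 369 and 446 FPKM in GM to 1054 and 1037 FPKM at DM 24h. Defining markers of other cell types, apart from smooth muscle, were mostly low. Of 10 adipocyte markers 6 were at 0 in all 4 libraries, of 10 blood markers 5, of 10 endothelial markers 3, of 10 neural markers 3, and of 13 osteoblast or cartilage markers 3. The summed level ranged from 13.3 to 16.5 FPKM for adipocyte, 2.81 to 4.45 FPKM for endothelial, 4.95 to 12.1 FPKM for blood and 5.79 to 28.7 FPKM for neural markers. It ranged from 659 to 2177 FPKM for osteoblast or cartilage markers, of which Spp1 made up 617 to 2133 FPKM, and from 605 to 872 FPKM for smooth muscle markers, of which none was at 0 in all 4. Acta2 made up most of the smooth muscle sum, at 329 to 544 FPKM, and Tagln was at 11.5 to 187 FPKM. The smooth muscle list also includes Des, counted as a myoblast marker too, at 94.4 to 238 FPKM. The part of these cells in the results was not tested. In bulk RNA, fewer cells of a type and less RNA per cell cannot be told apart.

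The 6 promoters printed here belong to genes of the changes described later, each 250 bases before to 50 after the start, from RefSeq on GRCm38.p6 and printed 5′ to 3′ on the gene's strand. Capitals mark CAGCTG or CACCTG (E-boxes that MyoD and Myogenin can bind) in Chrng, Myl1, Mylk4 and Myom3, genes that rose, and also the MEF2 site in Mylk4 and Myom3. In Hmgcs1, a cholesterol synthesis gene that rose, they mark TCACNCCAC (a sterol response element) and CCAAT. In Top2a, a gene of dividing cells that fell, they mark CCAAT. Either strand counts, and CCAAT on the reverse strand reads ATTGG.
Chrng, chr1:87205561-87205860, strand +: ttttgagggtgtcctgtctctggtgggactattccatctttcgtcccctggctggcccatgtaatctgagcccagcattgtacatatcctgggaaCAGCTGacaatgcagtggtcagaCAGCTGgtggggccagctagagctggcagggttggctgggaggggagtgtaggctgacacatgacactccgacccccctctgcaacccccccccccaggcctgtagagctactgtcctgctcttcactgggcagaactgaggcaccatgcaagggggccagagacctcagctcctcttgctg
Myl1, chr1:66945007-66945306, strand -: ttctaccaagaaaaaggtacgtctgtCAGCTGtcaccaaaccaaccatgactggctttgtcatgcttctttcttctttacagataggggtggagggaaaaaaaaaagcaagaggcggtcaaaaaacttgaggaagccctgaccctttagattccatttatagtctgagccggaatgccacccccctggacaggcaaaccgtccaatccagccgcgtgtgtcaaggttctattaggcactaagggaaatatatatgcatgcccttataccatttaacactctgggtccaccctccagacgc
Mylk4, chr13:32783915-32784214, strand -: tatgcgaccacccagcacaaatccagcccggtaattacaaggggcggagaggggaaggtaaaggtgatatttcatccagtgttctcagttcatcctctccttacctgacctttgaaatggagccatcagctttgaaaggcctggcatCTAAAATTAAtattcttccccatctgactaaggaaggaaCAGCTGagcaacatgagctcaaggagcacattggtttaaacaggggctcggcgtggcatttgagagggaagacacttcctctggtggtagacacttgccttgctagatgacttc
Myom3, chr4:135759465-135759764, strand +: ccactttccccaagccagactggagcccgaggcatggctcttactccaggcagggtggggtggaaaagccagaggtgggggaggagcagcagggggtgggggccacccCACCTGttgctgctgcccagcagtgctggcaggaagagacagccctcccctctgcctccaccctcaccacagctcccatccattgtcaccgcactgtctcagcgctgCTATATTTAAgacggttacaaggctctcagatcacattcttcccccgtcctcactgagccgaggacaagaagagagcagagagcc
Hmgcs1, chr13:119690101-119690400, strand +: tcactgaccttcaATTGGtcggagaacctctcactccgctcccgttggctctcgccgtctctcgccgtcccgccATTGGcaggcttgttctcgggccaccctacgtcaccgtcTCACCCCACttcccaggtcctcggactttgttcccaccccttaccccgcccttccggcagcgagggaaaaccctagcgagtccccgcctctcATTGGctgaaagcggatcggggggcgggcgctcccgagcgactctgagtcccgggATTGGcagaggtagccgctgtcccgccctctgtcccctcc
Top2a, chr11:99024140-99024439, strand -: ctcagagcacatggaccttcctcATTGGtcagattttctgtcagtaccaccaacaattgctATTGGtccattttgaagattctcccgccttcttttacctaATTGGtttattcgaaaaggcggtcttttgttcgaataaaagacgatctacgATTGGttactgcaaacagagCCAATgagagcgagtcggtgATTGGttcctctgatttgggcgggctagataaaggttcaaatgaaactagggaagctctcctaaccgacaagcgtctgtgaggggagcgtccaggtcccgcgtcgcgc

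Promoters were found for 10011 of the 12545 genes, 12843 in all. CAGCTG stood in 15.7% of all promoters, in 25.6% of those of genes called at least 2-fold higher in PFI-3 cells, in 16.0% of those called at least 2-fold lower and in 39.3% of the 56 promoters of the contractile list. The MEF2 site stood in 1.68% of all promoters, 3.24% of those at least 2-fold higher and 17.9% of the contractile ones. CCAAT stood in 37.8% of all promoters, in 73.3% of the 60 promoters of the G2 and M list and in 80.0% of the 25 of the cholesterol list. CACCTG stood in 17.4% of all promoters and in 33.9% of the contractile ones. TCACNCCAC stood in 1.13% of all and in 1 of the 25 of the cholesterol list. In the 19 promoters of the neuromuscular junction list CAGCTG stood in 15.8%, near the share of all promoters. A match describes the letters only.

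With PFI-3, 4028 genes (32.1%) were called higher and 3535 (28.2%) lower at DM 24h than in GM, 7563 in all (60.3%), by edgeR's quasi-likelihood test at an adjusted p under 0.05. Of these, 1572 (12.5%) were at least 2-fold higher and 774 (6.17%) at least 2-fold lower. In 80.3% of the genes tested the 2 GM and the 2 DM 24h values did not overlap. The count was 6235 to 7133 when 1 library was left out, and 5448 genes (72.0%) were called in the same direction in all 4 such fits. With DMSO, 3840 genes (30.6%) were called higher and 3762 (30.0%) lower, 7602 in all (60.6%). The change itself differed between the treatments in 423 genes (3.37%), higher with PFI-3 in 223 (1.78%) and lower in 200 (1.59%).

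Most of the programme moved in both treatments. Of the 1572 genes at least 2-fold higher with PFI-3, 1393 (88.6%) were called higher with DMSO and 1231 were at least 2-fold higher there. Of the 774 at least 2-fold lower, 673 (87.0%) were called lower with DMSO. Among genes called higher in both treatments, 3137 in all, the difference of the changes was called lower with PFI-3 in 111 and higher in 45. Among the 2900 called lower in both, it was called higher with PFI-3, a smaller fall, in 52 and lower in 15. Opposite calls were rare, with 33 genes called higher with PFI-3 and lower with DMSO and 14 the other way.

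**Figure D1:**
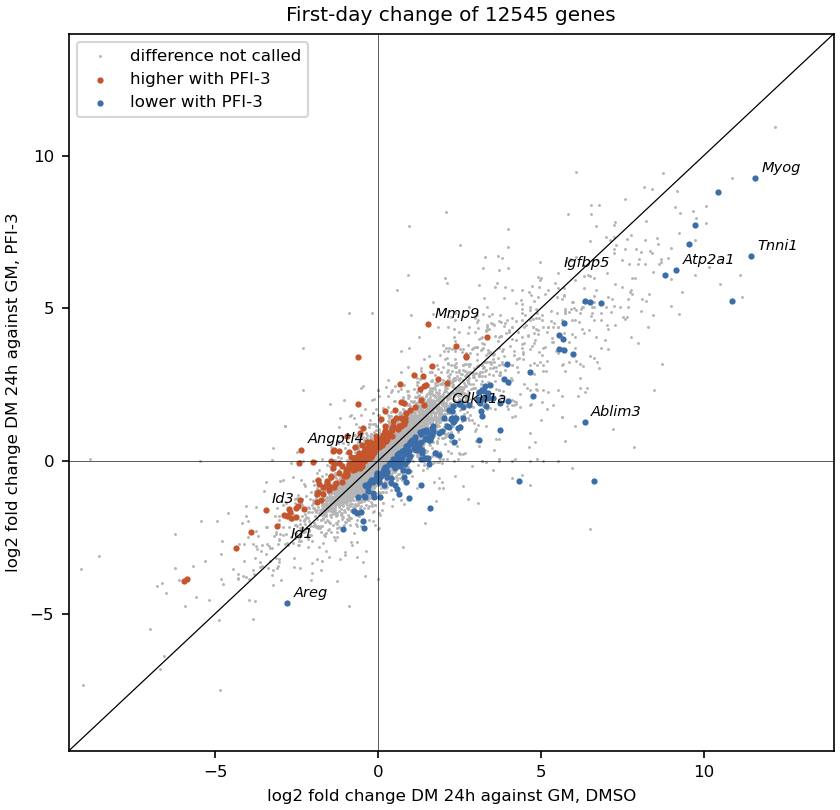
Log2 fold change from GM to DM 24h with DMSO (horizontal) against the same with PFI-3 (vertical), 1 point for each of 12545 genes, with the line of equal change. Coloured points are the 423 genes whose change differed by edgeR's test. Fitted values of genes near 0 in GM, at the far right, depend on the prior count. Most genes lie along the line, and Myog lies below it.

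The 12 largest rises included genes of fusion, the sarcomere and the acetylcholine receptor. Mymx, which encodes the fusion micropeptide Myomixer, was at 0 counts in both GM libraries and at 19.02 and 19.14 CPM at DM 24h, at least 88.4-fold higher against a floor of 3 counts per library. Myog (chr1:134290004-134292548 in RefSeq) was at 0.436 and 0.855 CPM in GM and 412 and 400 CPM at DM 24h. Its log2 fold change with PFI-3 was 9.27 ± 0.14 (SE; edgeR adjusted p 8.39e-13). All DM 24h values of both genes lay far above all GM values.

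Mymk encodes Myomaker, the membrane protein that acts with Myomixer in fusion. It rose from 0.436 and 0.997 CPM to 157 and 154 CPM, a log2 fold change of 7.74 ± 0.17 (SE). Actc1, the cardiac alpha-actin that early muscle also makes, rose from 0.582 and 0.712 CPM to 299 and 299 CPM (8.83 ± 0.13). Chrng, the fetal gamma subunit of the acetylcholine receptor, rose from 0.291 and 0.427 CPM to 82.6 and 86.6 CPM (7.84 ± 0.18). Rbm24, an RNA-binding protein of muscle splicing, rose from 0.0727 and 0.499 CPM to 208 and 204 CPM, a log2 fold change of 9.44 that was 8.66 without GM library A and 11.29 without GM library B. That of Mymk was 8.44 without GM library B. In Mymk, Actc1, Chrng and Rbm24 the GM values sat near the bottom of the scale, which a ranking by log2 fold change favours. Their DM 24h duplicates nearly coincided, and duplicates at DM 24h were close in general (SD 0.16 of the log2 ratio).

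In Myl1, Heyl and Scara5, GM held only 0 to 2 counts per library. Myl1, an essential myosin light chain of fast fibres, had 1 count in each GM library and 23.9 and 23.7 CPM at DM 24h, a ratio of 331 with a 95% exact counting interval of 91.2 to 2737. Heyl, a Hey-family repressor and Notch target, went from 0.0727 and 0.142 CPM to 54.9 and 57.8 CPM, a ratio of 522 (178 to 2534). Scara5, a ferritin receptor, went from 0.0727 and 0 CPM to 26.3 and 29.7 CPM, a ratio of 778 (139 to 30764). Such intervals cover counting error only. The fitted log2 change of Scara5, 9.26, was 11.50 without GM library A and 8.41 without GM library B. Scn7a, Fndc1 and Ppfia4 complete the 12 largest rises.

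The 12 largest falls included ligands and receptors. Areg, a ligand of the EGF receptor, fell from 10.2 and 13.3 CPM to 0.457 and 0.458 CPM, a log2 fold change of -4.66 ± 0.29 (SE; edgeR adjusted p 7.73e-08). Hbegf, another such ligand, fell from 27.1 and 24.7 CPM to 1.22 and 1.83 CPM (-4.08 ± 0.31). Lrp2, the endocytic receptor megalin, fell from 27.1 and 15.2 CPM to 0.380 and 0.534 CPM (-5.50 ± 0.40). In each, both GM values exceeded both DM 24h values.

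Serpinb2, a plasminogen activator inhibitor, went from 28.2 and 11.6 CPM to 0.0761 and 0.153 CPM, a ratio of 174 with a counting interval of 59.1 to 844. Its fitted log2 change of -7.33 was -6.55 without GM library A. Lgr6, a receptor of R-spondins, fell from 15.3 and 28.1 CPM to 1.22 and 0.915 CPM (-4.34 ± 0.34). Fibcd1, Lce1g, Selp, Tigit, Siglecg, Plek and Car6 complete the 12 largest falls. Car6, a secreted carbonic anhydrase, was at 9.97 and 3.78 CPM in GM with PFI-3 and at 0 in the 4 DMSO libraries of GM and DM 24h, and its log2 change of -3.88 was -3.02 without GM library A.

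**Figure D2:**
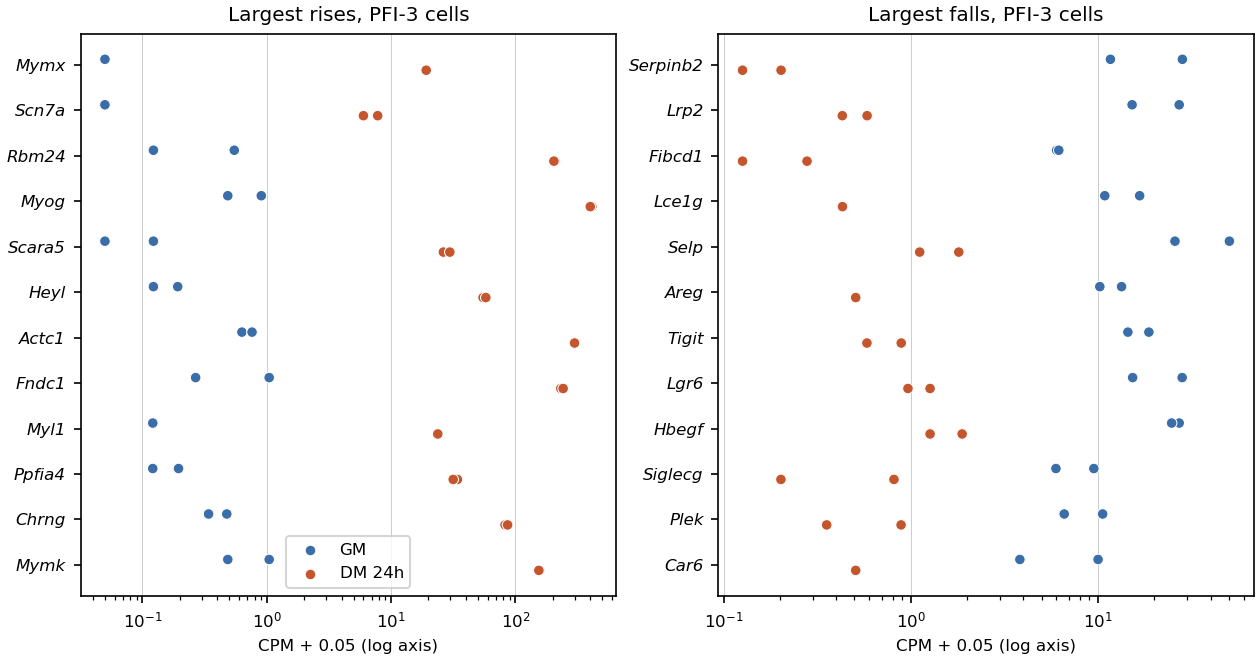
CPM + 0.05 on a log axis of the 12 genes with the largest rises (left) and the 12 with the largest falls (right) in the 4 PFI-3 libraries, 1 point per library, duplicates at times on top of each other. The GM and DM 24h points of each gene do not overlap. Mymx and Scn7a are at 0 in GM, plotted at 0.05.

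Switching on can also be counted. By the rule of at most 3 counts in both GM libraries and at least 5 CPM in both DM 24h libraries, 28 genes came on with PFI-3 and 61 with DMSO, 19 of them in both. A gene that misses these thresholds with PFI-3 may still have risen there. Tnni1, with 5 counts in each GM library with PFI-3, missed the rule and reached 38.5 and 39.0 CPM. Cacna1s missed it with PFI-3 only through its 4.26 CPM in DM 24h library A. At DM 24h the level of the 28 genes with PFI-3 was a median of 0.397 times that with DMSO, from 0.261 to 1.54, and was below the DMSO level in 27. Scara5 was the exception. These genes were chosen on the PFI-3 values, so the ratios are a description.

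**Figure D3:**
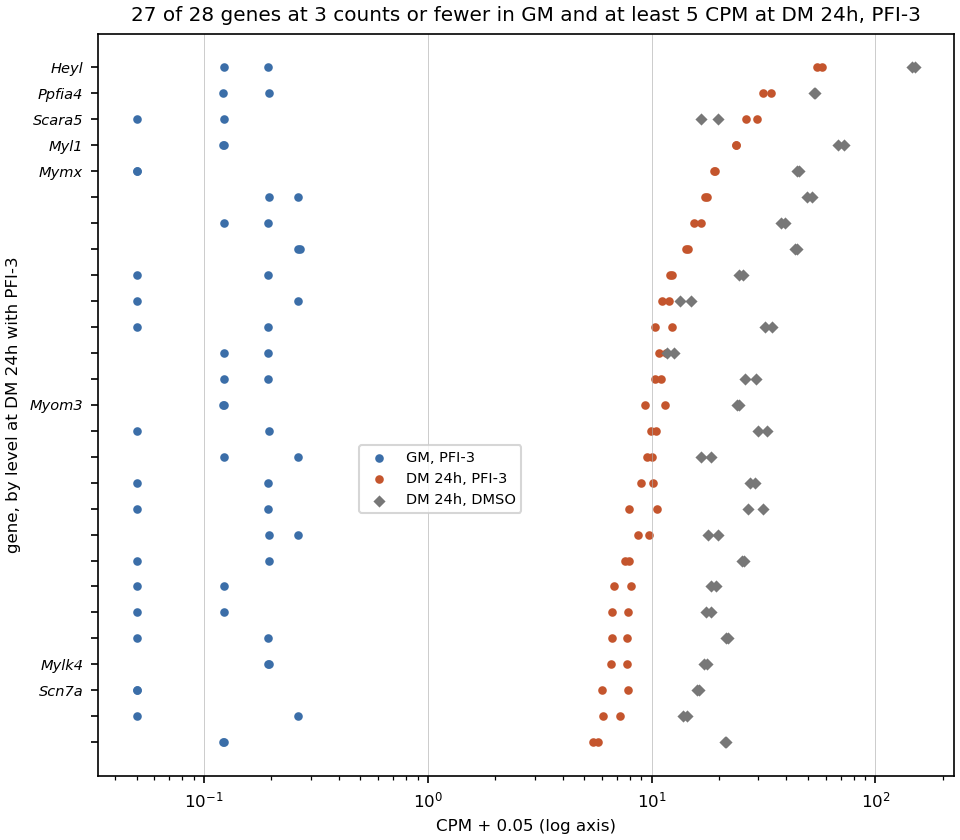
CPM + 0.05 on a log axis of 27 of the 28 genes that came on by that rule in PFI-3 cells, with the genes named in the text labelled: GM with PFI-3, DM 24h with PFI-3 and DM 24h with DMSO, 2 libraries each. At DM 24h the mean with PFI-3 lies below that with DMSO for 26 of the genes plotted, Scara5 being the exception.

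Muscle regulators moved both ways. Of 26 myogenic regulators tested 15 rose and 5 fell, a median log2 fold change of 0.58 against 0.04 over all genes. The counts of this and later lists stand beside 32.1% called higher and 28.2% lower over all genes, and called differences beside 3.37%. Myod1 rose from 113 and 158 CPM to 208 and 200 CPM (0.59 ± 0.13, SE). Mef2a, a MEF2 factor, rose from 92.7 and 97.3 CPM to 359 and 387 CPM (1.97 ± 0.07).

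Mef2c had 0.145 and 0.214 CPM in GM and 0.228 and 0.381 CPM at DM 24h with PFI-3. With DMSO it had 0 and 0.443 CPM in GM and 1.74 and 0.929 CPM at DM 24h. These levels rest on 0 to 22 counts per library. Its change with PFI-3 did not pass the test (adjusted p 0.506), and neither did the difference of the changes (-1.77 ± 1.21, SE; adjusted p 0.504). Myf5 stood at 42.9 and 66.0 CPM in GM and 46.6 and 51.3 CPM at DM 24h with PFI-3, groups that overlap. Its log2 change of -0.16 did not pass the test (adjusted p 0.383) and was -0.43 without GM library A. With DMSO Myf5 was called lower (-0.55 ± 0.15, SE; adjusted p 0.00721). Tead4, a TEAD factor of muscle genes, fell from 37.8 and 31.1 CPM to 24.6 and 23.0 CPM with PFI-3 and went from 32.4 and 28.4 CPM to 49.3 and 56.0 CPM with DMSO. That difference of the changes was -1.33 ± 0.16 (SE; adjusted p 0.00121).

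Inhibitors and progenitor genes moved in both directions, 15 rising and 10 falling of 26. The Id genes, whose products capture the partners of MyoD, fell. Id1 fell from 122 and 143 CPM to 20.7 and 19.4 CPM (-2.72 ± 0.10). Id3 fell from 168 and 251 CPM to 71.3 and 67.4 CPM (-1.60 ± 0.14). Notch3 rose from 45.0 and 52.2 CPM to 353 and 331 CPM, and Pax7, the satellite-cell factor, from 33.3 and 43.7 CPM to 111 and 102 CPM.

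Contractile genes rose the most as a list. Of 60 tested, 47 rose, 3 fell and 10 were not called, and the median log2 fold change was 5.12, or 4.28 with genes at 0 in GM set at their bound. With DMSO 50 rose, with a median of 6.03, or 4.87 at the bounds. Their summed level went from 2769 and 2863 CPM to 4692 and 4840 CPM with PFI-3 and from 4154 and 3186 CPM to 8184 and 8324 CPM with DMSO. Both DM 24h sums with PFI-3 lay below both with DMSO. The difference of the changes was called in 7 genes, all lower with PFI-3, and in 2 when only the compared groups were fitted.

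Myh3, embryonic myosin heavy chain, rose from 0.800 and 1.07 CPM to 126 and 137 CPM, against 412 and 407 CPM at DM 24h with DMSO. Acta1, skeletal alpha-actin, rose from 6.84 and 6.48 CPM to 216 and 223 CPM, against 545 and 551 CPM. Ttn, the giant sarcomere spring, rose from 0.946 and 1.42 CPM to 215 and 191 CPM, against 536 and 539 CPM. Each was well above GM and below the vehicle cells at the same hour. The 3 that fell were Tpm3, Mylk2 and Ankrd1, the last a target of YAP, from 335 and 310 CPM to 76.9 and 76.6 CPM.

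Genes of calcium handling and the triad followed, with 19 of 25 higher and 1 lower. With DMSO 23 were higher and 1 lower. The difference of the changes was called lower with PFI-3 in 6 of the 25 and higher in none, in the fit of all libraries. Cacna1s, the voltage sensor, was at 0 in both GM libraries and at 4.26 and 5.42 CPM at DM 24h, against 25.9 and 23.2 CPM with DMSO. Atp2a1, the fast-fibre calcium pump SERCA1, rose from 0.655 and 0.855 CPM to 58.5 and 58.3 CPM. Atp2a2, the calcium pump SERCA2, fell from 436 and 444 CPM to 356 and 363 CPM (-0.29 ± 0.07).

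Among 22 genes of the neuromuscular junction and its membrane complex 18 rose and 1 fell. Chrna1, the receptor's alpha subunit, went from 66.7 and 71.8 CPM to 406 and 411 CPM, although its expected counts were fractional and reads may be shared with another gene. Dag1, dystroglycan, rose from 284 and 315 CPM to 740 and 717 CPM (1.28 ± 0.09). Of 45 fusion genes 20 rose and 14 fell, so the rise of Mymx and Mymk was not that of the whole list.

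**Figure D4:**
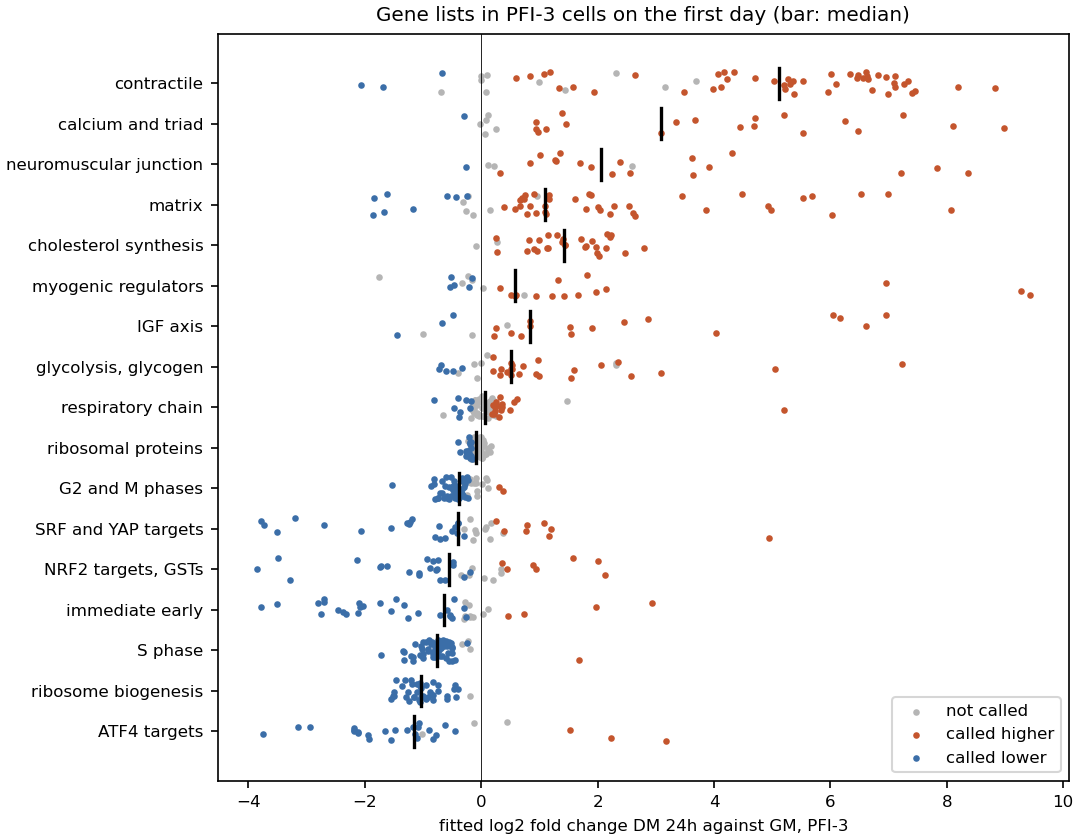
Fitted log2 fold change from GM to DM 24h with PFI-3 (horizontal) of the tested members of 17 gene lists, 1 point per gene, coloured by edgeR's call, with the list's median as a bar. Contractile genes lie farthest to the right with a median of 5.12, and ATF4 targets have a median of -1.15 and ribosome biogenesis genes one of -1.04. Without GM library A these are -0.80 and -0.93.

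Cell-cycle genes fell together. Of 60 S-phase genes 56 fell and 1 rose, with a median log2 fold change of -0.75, and with DMSO 54 fell and 1 rose, with a median of -0.71. Mcm5, a subunit of the replicative helicase, fell from 265 and 281 CPM to 122 and 121 CPM (-1.17 ± 0.06, SE). Orc1, of the origin recognition complex, fell from 27.5 and 29.7 CPM to 9.13 and 8.16 CPM (-1.73 ± 0.16). The gene that rose was E2f2, from 21.8 and 34.0 CPM to 88.3 and 91.1 CPM.

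Of 68 G2 and M genes 54 fell (41 to 56 over the alternatives) and 2 rose, with a median of -0.39, and with DMSO 37 fell and 4 rose, with a median of -0.25. The difference of the changes was called in 3 of the 68, all lower with PFI-3 (Cenpf, Smc4 and Ncapg), near the 3.37% called over all genes. It was called in none when only the compared groups were fitted. Ccna2, cyclin A2, fell from 302 and 358 CPM to 234 and 242 CPM. Top2a, topoisomerase II alpha, fell from 548 and 571 CPM to 447 and 461 CPM (-0.30 ± 0.06) and stood at 546 and 530 CPM in GM and 565 and 531 CPM at DM 24h with DMSO. The difference for Top2a did not pass the test (adjusted p 0.0663).

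Of 21 genes of cell-cycle exit 12 rose and 4 fell. Cdkn1a, the CDK inhibitor p21, rose from 123 and 166 CPM to 465 and 480 CPM (1.71 ± 0.11). Cdkn1c, the CDK inhibitor p57, rose from 1.75 and 2.64 CPM to 82.9 and 81.1 CPM (5.22 ± 0.18), against 286 and 299.5 CPM at DM 24h with DMSO. Rb1, the retinoblastoma protein, rose from 38.5 and 37.5 CPM to 101 and 102 CPM (1.42 ± 0.08), against 162 and 168 CPM. Ccnd1, cyclin D1, fell from 618 and 626 CPM to 125 and 124 CPM (-2.32 ± 0.09). No groups overlapped in these 4 genes.

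Signalling genes of growing cells fell too. Of 40 immediate early and MAPK feedback genes 27 fell and 4 rose. Etv4, an ETS factor induced by MAPK, fell from 96.0 and 97.8 CPM to 7.76 and 9.15 CPM (-3.52 ± 0.13). Fosl1 fell from 286 and 317 CPM to 46.2 and 46.2 CPM, while Fos itself was at 1.53 and 3.06 CPM and then 1.83 and 2.21 CPM. Of 39 SRF and YAP targets 21 fell and 8 rose. Cyr61, a YAP target, fell from 351 and 374 CPM to 57.6 and 53.9 CPM, and Actb from 6917 and 6685 CPM to 3918 and 3918 CPM.

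Ribosome biogenesis fell as a list, in 40 of 41 genes and with a median of -1.04. Ncl, nucleolin, fell from 1441 and 1069 CPM to 517 and 605 CPM (-1.16 ± 0.16). Ribosomal protein genes themselves moved little with PFI-3. Of 75 none rose and 18 fell, with a median of -0.09, whereas with DMSO 70 fell, with a median of -0.41.

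The difference of the changes was called higher in 14 of the 75. Rplp0, a stalk protein, stood at 2672 and 2588 CPM in GM and 2597 and 2478 CPM at DM 24h with PFI-3, and at 2955 and 3020 CPM and then 1997 and 1897 CPM with DMSO. The summed level of the list went from 50108 and 48441 CPM to 45382 and 45620.0 CPM with PFI-3 and from 56755 and 52750.1 CPM to 40831 and 40580.3 CPM with DMSO. The 14 differences became 51 without GM library B with DMSO, 1 or 2 without any 1 DM 24h library, and 1 when only the compared groups were fitted. The 18 falls with PFI-3 became 8 without GM library A and 6 or 7 without a DM 24h library.

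Matrix genes rose. Of 52 tested 38 rose and 8 fell, with a median of 1.09. Col3a1, collagen III, rose from 422 and 636 CPM to 3311 and 3256 CPM (2.63 ± 0.16, SE). Fn1, fibronectin, rose from 2632 and 2134 CPM to 4036 and 3894 CPM (0.73 ± 0.14). Timp1, an inhibitor of matrix proteases, had the largest fall of the list, from 209.8 and 238 CPM to 61.9 and 61.3 CPM, a log2 fold change of -1.86.

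The gene with the largest gain in reads was Igfbp5, a binding protein of the insulin-like growth factors, on chr1:72858065-72874865. It rose from 58.8 and 323 CPM to 13509 and 13852 CPM, and from 10.5 and 57.5 FPKM to 2413 and 2474 FPKM, a per-length level above that of Actb (2180 and 2178 FPKM) in the same libraries. Its log2 fold change was 6.16 ± 0.78 (SE), 5.41 without GM library A and 7.86 without GM library B. With DMSO it reached 11816 and 12546 CPM. Of 22 genes of the IGF axis 16 rose and 3 fell. Igf2, the fetal growth factor, rose from 1.38 and 0.712 CPM to 68.0 and 71.5 CPM (6.05 ± 0.14).

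Cholesterol and fatty acid synthesis rose almost as a whole, with 28 of 30 genes higher and none lower and a median of 1.42, against 29 of 30 and 1.86 with DMSO. Hmgcs1, HMG-CoA synthase, rose from 48.3 and 81.9 CPM to 361 and 362 CPM (2.47 ± 0.34), against 812 and 788 CPM at DM 24h with DMSO. Its GM levels with DMSO were also uneven, at 69.3 and 184 CPM. Scd1, stearoyl-CoA desaturase, rose from 162 and 206 CPM to 390 and 413 CPM, against 1042 and 1052 CPM with DMSO. Its expected counts were fractional, so reads may be shared with Scd2.

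Of 8 genes of sterol efflux, targets of the LXR receptors, 4 rose with PFI-3 and none fell, beside 32.1% higher and 28.2% lower over all genes.

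Targets of ATF4, the factor of the amino acid response, fell in 24 of 30 genes and rose in 3, with a median of -1.15, against 20 and 4 and a median of -0.65 with DMSO. Atf4 itself fell from 654 and 364 CPM to 226 and 227 CPM with PFI-3 (-1.17 ± 0.19, SE). It went from 471 and 459 CPM to 428 and 432 CPM with DMSO. Asns, asparagine synthetase, fell from 343 and 157 CPM to 33.4 and 31.7 CPM (-2.94 ± 0.28), against 189 and 141 CPM and then 53.5 and 55.8 CPM. Trib3, a pseudokinase of this response, was at 54.9 CPM in GM library A and 12.4 CPM in GM library B. Library A of GM with PFI-3 was the highest of all 4 GM libraries for Atf4, Asns and Trib3. Without it the change of Atf4 was -0.69, still called, and the count of ATF4 targets that fell was 23 to 25 over all alternatives. The DM 24h values of Atf4 and Asns with PFI-3 were below both DMSO values at the same hour.

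Of 36 NRF2 targets and glutathione transferases 22 fell and 7 rose. Ftl1, ferritin light chain, fell from 4102 and 4593 CPM to 2469 and 2454 CPM (-0.82 ± 0.10). The metallothionein genes Mt1 and Mt2 did not pass the test with PFI-3. Mt1 was at 355 and 358 CPM in GM and 447 and 454 CPM at DM 24h, against 226 and 355 CPM and then 112 and 111 CPM with DMSO, a difference of 1.72 ± 0.22 (adjusted p 0.00203).

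Glycolysis and glycogen genes rose in 23 of 35 and fell in 5, with a median of 0.51, against 19 and 10 and a median of 0.21 with DMSO. The difference was called higher with PFI-3 in 10 and lower in none, and in 5 to 14 across the alternatives. Aldoa, aldolase A, rose from 617 and 690 CPM to 1288 and 1279 CPM, against 1017 and 993 CPM and then 1135 and 1198 CPM with DMSO (difference 0.76 ± 0.09, adjusted p 0.00187). Ldha, lactate dehydrogenase A, rose from 653 and 748 CPM to 1017 and 980 CPM, against a fall from 1061 and 980 CPM to 738 and 702 CPM (1.01 ± 0.10, adjusted p 0.000716). For both genes the GM levels with PFI-3 lay below those with DMSO and the DM 24h levels above them.

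Of 68 nuclear-encoded respiratory chain genes 16 were higher and 8 lower, with a median of 0.07. Of 26 SWI/SNF genes 7 were higher and 6 lower, with a median of 0.05, beside 32.1% higher and 28.2% lower over all genes. Smarca2, the gene of BRM, rose from 31.4 and 45.0 CPM to 74.9 and 81.2 CPM (1.03 ± 0.16, adjusted p 0.000141) and from 19.7 and 28.3 CPM to 52.7 and 52.6 CPM with DMSO. Smarca4, the gene of BRG1, stood at 382 and 428 CPM and then 375 and 360 CPM (-0.14 ± 0.08, adjusted p 0.135). Pbrm1 stood at 187 and 159 CPM and then 183 and 194 CPM (0.12 ± 0.09, adjusted p 0.245). Without GM library A both of the last passed the test, Smarca4 at -0.22 and Pbrm1 at 0.25.

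The remaining lists moved both ways, beside 32.1% of all genes called higher and 28.2% called lower. Of 18 circadian genes 10 rose and 3 fell, among them Tef, a PAR bZIP factor, from 77.3 and 72.0 CPM to 200.4 and 192 CPM. Of 34 interferon and chemokine genes 15 rose and 7 fell. Of 29 p53 targets 12 rose and 12 fell. Of 24 endoplasmic reticulum chaperone genes 5 rose and 8 fell, and of 8 replication histone genes tested 3 rose and 2 fell.

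The genes whose first-day change differed between treatments were of several kinds. Angptl4, an inhibitor of lipoprotein lipase (chr17:33774900-33781575), stood at 39.9 and 57.5 CPM in GM and 63.5 and 62.6 CPM at DM 24h with PFI-3 and fell from 76.7 and 58.0 CPM to 12.7 and 13.5 CPM with DMSO. The difference of its log2 changes was 2.73 ± 0.23 (SE; edgeR adjusted p 0.000292). With PFI-3 alone its rise of 0.37 (adjusted p 0.0493) was not called without GM library A (0.13) or without either DM 24h library. Slc30a1, a zinc exporter (chr1:191906697-191913248), stood at 18.5 and 21.6 CPM and then 18.9 and 20.4 CPM with PFI-3 and fell from 20.0 and 19.5 CPM to 5.07 and 4.72 CPM with DMSO (1.98 ± 0.18, adjusted p 0.000324). Npr3, the natriuretic peptide clearance receptor, had the same shape, from 21.1 and 15.7 CPM to 18.0 and 16.9 CPM against a fall to 2.70 and 2.79 CPM. In these 3 genes both DM 24h values with PFI-3 lay above both with DMSO, while the GM means differed less. They too were chosen for a called difference, so this is a description.

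Id3 fell in both treatments and less with PFI-3. With DMSO it went from 238 and 249 CPM to 22.7 and 21.9 CPM, and the difference was 1.85 ± 0.21 (adjusted p 0.00110). Id1, by contrast, fell to 17.1 and 14.5 CPM with DMSO, a difference of 0.15 ± 0.15 that did not pass the test (adjusted p 0.677). Cxcl12, a chemokine of muscle precursors, rose from 91.9 and 64.3 CPM to 295 and 300.3 CPM against 121 and 114 CPM and then 188 and 198 CPM (1.21 ± 0.17, adjusted p 0.00367). Mmp9, a gelatinase, reached 8.60 and 9.46 CPM with PFI-3 and 1.59 and 1.32 CPM with DMSO, and its difference of 2.94 was called in 3 of the 8 fits that leave out 1 library.

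Genes with a lower change under PFI-3 included genes of muscle. Atp2a1 reached 153 and 162 CPM with DMSO, a difference of -2.91 ± 0.38 (adjusted p 0.00214), and Myh3 had -2.45 ± 0.32 (adjusted p 0.00214). Myog reached 847 and 838 CPM with DMSO against 412 and 400 CPM, and its difference of -2.31 ± 0.44 (adjusted p 0.0175) was called in 2 of the 8 fits that leave out 1 library. In GM Myog had 6 and 12 counts with PFI-3 and 2 and 5 with DMSO, and Atp2a1 had 9 and 12 and then 2 and 5, so the fitted differences of both rest in part on few counts. Dag1 reached 1311 and 1377 CPM with DMSO, a difference of -1.02 ± 0.12 (adjusted p 0.00121), and Rb1 had -0.84 ± 0.11 (adjusted p 0.00209). Tnni1, slow troponin I, stood at 38.5 and 39.0 CPM against 139 and 128 CPM at DM 24h. In each of these genes both DM 24h values with PFI-3 lay below both with DMSO. The genes were chosen for a called difference, so this separation is a description.

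Of 35 named genes with a called difference, 15 were called in all 8 fits that leave out 1 library (Ablim3, Aldoa, Angptl4, Atp2a1, Ccl2, Cxcl12, Dag1, Id3, Ldha, Myh3, Npr3, Rb1, Rtn4r, Slc30a1 and Tnni1). Over all genes this held for 73 of 423 (17.3%), 32 higher and 41 lower with PFI-3.

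**Figure D5:**
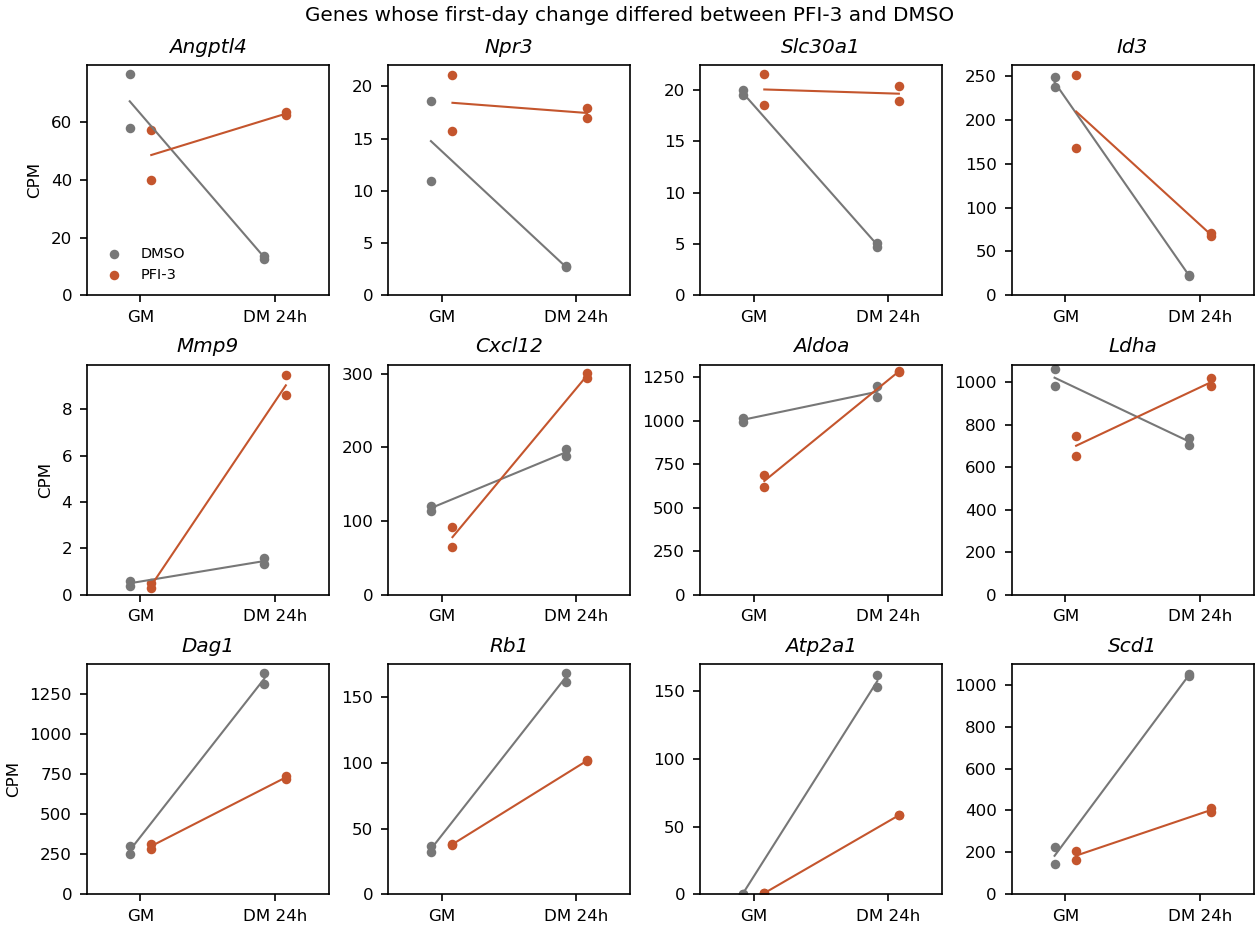
CPM of 12 genes whose first-day change differed between treatments, in GM and at DM 24h, with 1 point per library and a line through the means of DMSO (grey) and PFI-3 (orange). Axes start at 0. Angptl4, Npr3 and Slc30a1 stay near their GM level with PFI-3 and fall with DMSO, while Dag1, Rb1, Atp2a1 and Scd1 rise less with PFI-3.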

How the data were processed

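RNA-seq of total RNA gave, for each of 12 libraries, a deposited table with an expected count and an FPKM value per gene, per the file headers. The submitters' processing notes name HISAT, StringTie, Cufflinks, Bowtie, RSEM and DESeq2 and the build mm10, with no role or version. The annotation release is not given in the sources used here, and no mitochondrial gene was listed. Each library's expected counts deposited by the authors were rounded to whole numbers, and a gene missing from a table was set to 0. FPKM, normalised by the authors for length and depth, served for levels between genes and for an alternative test.

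Genes were filtered with filterByExpr, scaled by TMM and tested with edgeR 4.0.16 (quasi-likelihood, all 12 libraries, 6 groups, Benjamini-Hochberg adjustment over 12545 genes, called under 0.05) in R 4.3.3. SE is the log2 value divided by the root of F. DESeq2 1.42.0 and limma 3.58.1 on log2(FPKM + 1) and log2(FPKM + 0.1), other scalings, filters and left-out libraries were alternatives. On simulated counts for 12545 genes with 200 changed 2-fold, edgeR called 81.0% of them for the PFI-3 change and 69.0% for the difference. Of its calls there, 2.99% and 5.48% were false. The simulation gave every group the same spread per gene and changed few genes, unlike these data. Its rates therefore do not carry over to the calls made here.

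The comparison and the 34 gene lists were chosen with earlier results of these data known. Named genes were a fixed set, the 12 largest rises and falls, the 6 highest and 6 lowest differences (called, at least 5 CPM in the highest group, same sign in both letters, few fractional counts) and up to 4 called members per list by mean CPM. Other members were named after their values were seen, as were all statements on single samples. Genes with fractional counts may share reads with others. The median CPM of 1 count was 0.0777.
Some genes counted in the lists are not reported here by name.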

Additional observations from a re-analysis of the deposited data

Results flagged for a closer look

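For the named genes below a direct edgeR test found that the change from GM to DM 24h differed between PFI-3 and DMSO. The values are the log2 change with PFI-3 minus the log2 change with DMSO. When only the compared groups were fitted, 15 of the 35 named genes with a called difference were still called, the same 15 listed before. No explanation was tested.

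The change was higher with PFI-3 by 2.94 for Mmp9, 2.73 for Angptl4, 2.34 for Npr3, 1.98 for Slc30a1, 1.85 for Id3 and 1.75 for Cxcl5. The difference of Mmp9 was called in 3 of the 8 fits that leave out 1 library and not in the fit of only the compared groups, and DESeq2 gave no adjusted p for it. The change was also higher by 1.21 for Cxcl12, 0.96 for Ccl2, 0.74 for Nfkbia, 0.69 for Bhlhe40 and 0.56 for Tef. Glycolysis genes differed by 1.01 for Ldha, 0.76 for Aldoa, 0.59 for Pgk1 and 0.48 for Gapdh, the ferritin gene Ftl1 by 0.78, and Chrna1, the muscle acetylcholine receptor subunit, with fractional counts, by 0.45.

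The change was lower with PFI-3 for several genes known from muscle. The difference was -2.91 for Atp2a1, -2.72 for Tnnt1, -2.45 for Myh3, -2.31 for Myog, -2.00 for Mymk, -1.61 for Actc1, -1.02 for Dag1 and -0.33 for Bin1. It was -5.09 for Ablim3 and -4.74 for Tnni1. Of these genes Tnnt1, Myog, Mymk, Actc1 and Bin1 were not called when only the compared groups were fitted. In GM with DMSO the counts were 1 and 3 for Ablim3, 0 and 1 for Tnni1, and 1 and 3 for Tnnt1. They were 2 and 5 for both Myog and Atp2a1, 8 and 4 for Mymk, and 6 and 8 for Myh3. The fitted values of these genes rest on few counts. At DM 24h Ablim3 stood at 2.89 and 2.67 CPM with PFI-3 and 11.8 and 14.6 CPM with DMSO.

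Other genes with a lower change were Rtn4r at -2.63, Areg at -1.86, Scd1 at -1.39, Cdkn1c at -1.30, Atf4 at -1.06, Mylip at -0.97 and Rb1 at -0.84. Areg fell in both treatments and further with PFI-3, to 0.457 and 0.458 CPM against 2.46 and 1.86 CPM.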

How the results depend on the processing

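The 7563 genes called with PFI-3 were 7389 to 7567 under DESeq2 size factors, a filter of at least 10 mean counts or none, limma on FPKM and the replicate block in all libraries. They were 6543 with the DESeq2 Wald test, 6802 when only the compared groups were fitted, 6235 to 7133 without 1 library, and 2346 when a 2-fold change was also required. The 7602 genes called with DMSO became 2394 with that requirement and 6233 to 7671 without 1 library.

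The 423 genes whose change differed were less stable. A 2-fold requirement left 119, and a fit of only the compared groups gave 79. Limma on log2(FPKM + 1) called 595, 196 higher and 399 lower, and on log2(FPKM + 0.1) 419, 131 higher and 288 lower, against 223 and 200. Without 1 library the count ranged from 92 to 995. It was 995 without either GM library with DMSO, 749 without GM library B with PFI-3, 445 without GM library A with PFI-3, and 92 to 107 without any DM 24h library. The equal counts of 995 are a coincidence of different fits, with 589 higher and 406 lower in one, 531 and 464 in the other, and 425 calls shared in the same direction. The cause of these shifts was not tested. A fit that leaves a group with 1 library assumes that it varies like the other groups. The fit of all 12 libraries also shares its spread per gene across the 6 groups. Yet the log2 ratio between duplicates had an SD of 0.33 and 0.37 in the GM groups and 0.16 in each DM 24h group. The p-values printed from that fit rest on the shared spread.

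The labels do not say what the letters pair. Deviations of same-letter libraries correlated at -0.01 between GM and DM 24h with PFI-3 and at 0.49 between the GM groups. The replicate block gave 7567 genes with PFI-3 and 435 differences in all libraries, and 6736 and 101 in only the compared groups.

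Some differences not called in the fit of all libraries changed sign and were called under an alternative. On log2(FPKM + 1) they were -0.66 for Scn7a, 0.56 for Scara5 and -1.19 for Heyl, genes near 0 in GM. For Tpm2 the range without 1 library was -0.43 to 0.34 and for Ankrd1 -0.36 to 0.31, the ends without GM library A and B with DMSO. For Spp1 it was -0.62 to 0.94, without GM library A and B with PFI-3. The fall of Spp1 with PFI-3, -1.19, was -0.21 without GM library B and not called without that library or either DM 24h library. Differences in contractile genes rose from 7 to 37 and 29 under the FPKM fits. With 2 libraries a group and 12576374 to 13658352 counts each, genes near 0.0777 CPM rest on single counts.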

Other observations

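Further members of the lists, chosen after their values were seen, had a first-day change that differed from DMSO by edgeR's test on all libraries. Their calls in the other fits are not given here. Over all genes, 79 of the 423 differences were called when only the compared groups were fitted. Dll1, a Notch ligand, rose from 3.71 and 4.99 CPM to 76.0 and 77.4 CPM with PFI-3 and from 2.19 and 2.73 CPM to 119.6 and 114 CPM with DMSO, a difference of -1.42 (adjusted p 0.003). Atf5, a relative of ATF4, fell from 247 and 157 CPM to 44.7 and 43.9 CPM with PFI-3, against 113 and 108 CPM and then 76.9 and 85.7 CPM with DMSO (adjusted p 0.00214). Col1a1, collagen I, rose from 14.3 and 12.7 CPM to 63.8 and 61.3 CPM, against 38.2 and 38.5 CPM and then 399.5 and 396 CPM with DMSO (adjusted p 0.000292).

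Slc16a3, a lactate transporter, rose from 12.9 and 11.5 CPM to 66.3 and 58.5 CPM with PFI-3 and from 18.2 and 19.2 CPM to 45.6 and 46.4 CPM with DMSO (adjusted p 0.00214). Pfkl, liver phosphofructokinase, rose from 109 and 117 CPM to 230.5 and 218 CPM, against 124 and 124 CPM and then 137 and 147 CPM (adjusted p 0.00121). Cox6a2, the muscle form of a cytochrome oxidase subunit, stood at 2.40 and 1.35 CPM in GM and 1.14 and 1.22 CPM at DM 24h with PFI-3, and went from 0.0784 and 0 CPM to 4.68 and 4.80 CPM with DMSO. Its GM values with DMSO lie near or below the level of 1 count (0.0777 CPM), so its difference rests on few counts.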
